A study of Mus musculus with 36 samples.

Results

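RNA was compared between 2 kinds of sorted leukaemia cell from the central nervous system (CNS) of mice with terminal mixed-lineage leukaemia. The LMPP libraries came from lineage-negative, c-Kit+ cells that carried both Sca-1 and Flt3, the gate for lymphoid-primed multipotent progenitors. The LK libraries came from lineage-negative, c-Kit+ cells without Sca-1, a gate the labels also call LK/CLP. All libraries whose titles name CNS LMPP or CNS LK were taken, 4 of each, which makes 8 of the 36 libraries in the series. The leukaemia mice carried Kmt2a-AFF1, a fusion gene of infant leukaemia, and are labelled as miR-130b overexpressing, while the design text of the series names miR-130a. The other libraries were CNS HSC/MPP (Sca-1+ and Flt3-), the same 3 cell types from leukaemic bone marrow (BM), and the 3 cell types from BM of non-leukaemic miR-scramble mice that also carried Kmt2a-AFF1. From each of 12 leukaemia mice only one cell type was sequenced, in BM and in CNS, so that the 8 compared libraries came from 8 mice. In leukaemia, LMPP and LK cells therefore always came from different mice. No age, strain or promoter is named in the labels.

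The CNS LMPP libraries held 8.45, 19.0, 24.2 and 18.3 M counts in replicates 1 to 4 (M, the prefix mega), and the CNS LK libraries 20.1, 18.2, 27.1 and 28.7 M. Neither this depth (exact two-sided permutation p = 0.2, n = 4 against 4) nor the estimated share of counts from a uniform genomic background (0.404 to 8.28% in LMPP and 1.00 to 8.44% in LK, exact permutation p = 0.8) separated the groups beyond their spread. The smallest p that 4 against 4 allows is 0.0286.

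LMPPs are progenitors that have kept lymphoid and myeloid potential and largely lost megakaryocyte and red cell potential. The Sca-1-negative fraction of normal marrow holds the myeloid and red cell progenitors, in which genes for azurophil granule proteins, for mast cell and eosinophil products and for the red cell regulators Gata1 and Klf1 are active. Type I interferons signal through a receptor that activates Stat2. Stat2 acts with Irf9 on a short DNA element, the interferon-stimulated response element, to switch on a large set of antiviral genes that includes Irf7, itself an activator of interferon genes.

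The sequences that bear on these findings are the microRNAs of the model and promoters of interferon genes, all taken from RefSeq tables of build GRCm38.p6 and written 5′ to 3′. The 2 mature microRNAs named for the model share their seed, bases 2 to 8, shown in capitals, and differ at 2 positions. They lie at chr2:84741116-84741137 (minus strand) and chr16:17124071-17124092 (minus strand).
mmu-miR-130a-3p: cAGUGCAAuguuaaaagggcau
mmu-miR-130b-3p: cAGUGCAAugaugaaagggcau
These library preparations do not measure mature microRNAs. The Mir130b gene held 1, 3, 9 and 4 counts in the CNS LMPP libraries and 6, 2, 5 and 6 in the CNS LK libraries, too few to compare.

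The core of the response element was searched as GAAA, any 2 bases and GAAA again, on both strands and with overlaps counted, in windows from 250 bases before to 50 bases after each RefSeq gene start. It was found in at least 1 window of 3.99% of the 27025 genes with a promoter. Among the 27 genes of the type I interferon list that had a promoter in the table, 16 (59.3%) held it, as did 12 of 22 genes of an interferon gamma and GTPase list (54.5%). It was present for 1 of 10 genes of MHC class II presentation and 0 of 11 genes of the azurophil granule list. Of the genes that passed the test between CNS LMPP and CNS LK, 4 of 24 higher genes with a promoter held it (16.7%), against 0 of 21 lower genes. A match is only a description of these letters. The following 4 show the element, in capitals, in the 250 bases before the start of Stat2 (chr10:128270248-128270497, plus strand), Oas3 (chr5:120777660-120777909, minus strand), Isg15 (chr4:156200819-156201068, minus strand) and Ifit3 (chr19:34583279-34583528, plus strand). The match begins 222 bases before the start in Stat2 and 75 bases before it in Oas3. Isg15 has 3 overlapping matches, which begin 78 to 66 bases before the start, and Ifit3 has 2, at 156 and 122 bases. In a second annotation, 0 transcripts of Stat2 were found to start at its window, so its distance is less certain. For Oas3 there were 2 such transcripts, and for Isg15 and Ifit3 1 each.
Stat2: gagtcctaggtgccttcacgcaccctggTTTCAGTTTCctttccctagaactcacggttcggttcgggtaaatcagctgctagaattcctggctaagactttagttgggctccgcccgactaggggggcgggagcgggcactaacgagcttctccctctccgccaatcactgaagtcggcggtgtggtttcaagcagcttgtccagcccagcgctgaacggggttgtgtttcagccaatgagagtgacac
Oas3: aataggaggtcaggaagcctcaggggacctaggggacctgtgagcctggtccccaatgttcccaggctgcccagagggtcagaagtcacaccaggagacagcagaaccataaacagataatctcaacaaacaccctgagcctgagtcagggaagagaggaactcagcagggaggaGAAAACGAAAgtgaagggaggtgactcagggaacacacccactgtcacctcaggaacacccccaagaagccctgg
Isg15: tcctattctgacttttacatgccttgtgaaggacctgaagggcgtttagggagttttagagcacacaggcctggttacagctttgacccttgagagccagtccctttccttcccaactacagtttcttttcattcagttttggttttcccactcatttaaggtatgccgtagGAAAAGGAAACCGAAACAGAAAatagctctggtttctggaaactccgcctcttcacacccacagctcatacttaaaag
Ifit3: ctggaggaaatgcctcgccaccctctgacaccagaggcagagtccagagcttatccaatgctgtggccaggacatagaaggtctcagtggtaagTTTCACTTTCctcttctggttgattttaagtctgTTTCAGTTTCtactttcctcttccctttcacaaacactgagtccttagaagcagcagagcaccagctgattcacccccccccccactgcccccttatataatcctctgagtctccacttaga

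Genes of the interferon response, of dendritic cells and the Sca-1 gene itself were higher in CNS LMPP, and genes of azurophil granules, mast cells and eosinophils were lower, as were the red cell regulators Klf1 and Gata1. The red cell list itself was divided, with 11 of 16 tested genes lower and 5 higher. In the fit over all 24 leukaemia libraries, edgeR's quasi-likelihood test with Benjamini-Hochberg adjustment found 31 of 16054 genes higher (0.193%) and 27 lower (0.168%) at an adjusted p below 0.05. "Rose" and "fell" are used below for genes that passed this test, and "CPM" for counts per M counts in tested genes after scaling by trimmed mean of M values. There were 1999 genes at an unadjusted p under 0.05. This fit shares 1 estimate of the spread over all 6 leukaemia groups, HSC libraries included. Over the 16 LMPP and LK libraries of CNS and BM 227 genes passed, and a fit over the 8 compared libraries alone found 610 higher (3.80%) and 147 lower (0.916%). The last held 56 of the 58 genes, the exceptions being Prss57 and Nup107. Libraries of the groups did not overlap in CPM for 1219 genes with LMPP higher (7.59%) and 595 with LMPP lower (3.71%), and this was the case for all 31 genes that rose and for 26 of 27 that fell.

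All 58 kept their direction when any 1 of the 8 libraries was left out, but most calls did not survive it. The number still passing was 3, 36, 7 and 5 without CNS LK replicates 1 to 4, and 17, 4, 3 and 51 without CNS LMPP replicates 1 to 4. Ly6a, Irf7 and Igfbp7 passed in all 8 of these fits. With a term for the first number of the mouse ID 44 of the 58 were still called. Among the 8 libraries only CNS LK replicate 1 had its first number, so that library and number cannot be told apart there. In sorted pools, fewer cells of a type and less RNA per cell cannot be told apart. Where 2 sets of 4 values are given, the first is LMPP and the second LK, in the order of the replicate numbers. The 8 compared libraries came from 8 mice, but the fit over 24 libraries holds 2 libraries of each of 12 mice without a mouse term, so that its libraries are not all independent; the fit over 8 has 1 library a mouse.

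**Figure D1:**
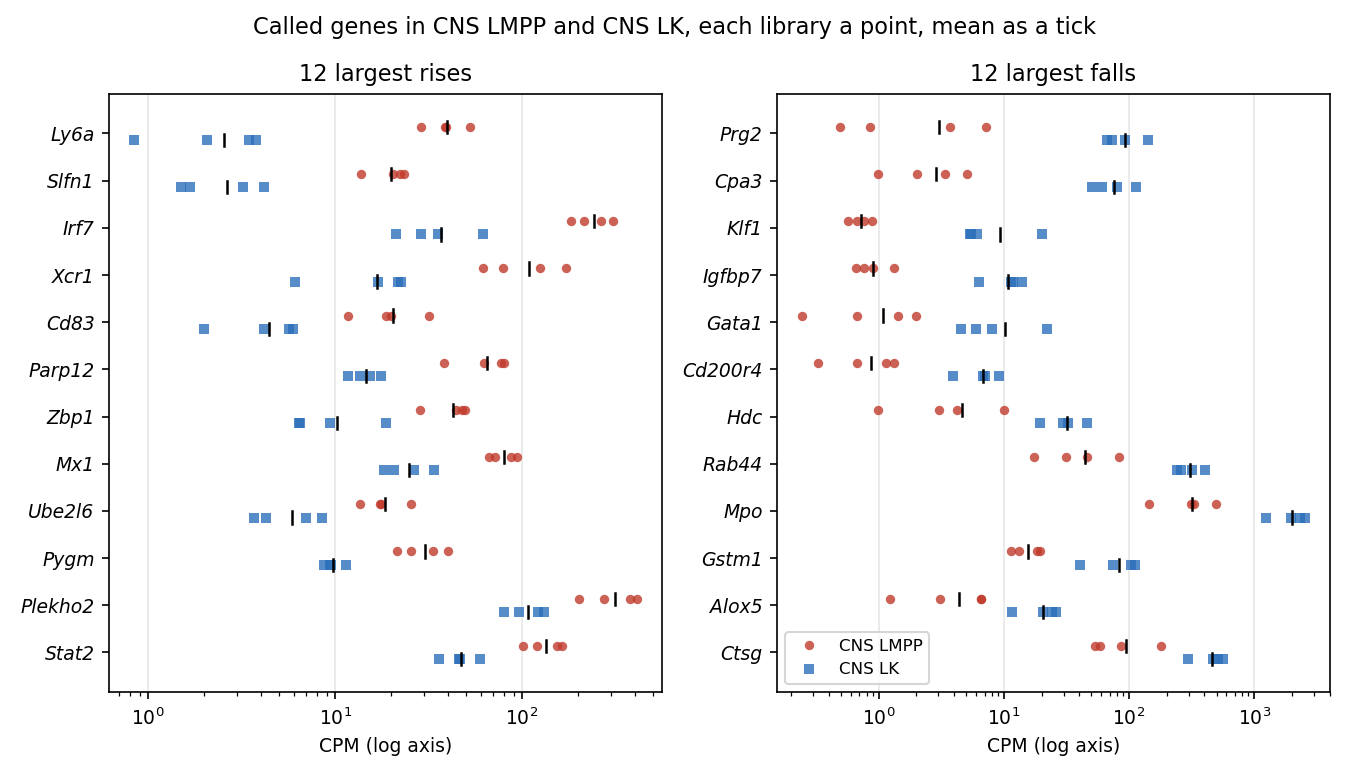
CPM of the 12 largest rises (left) and the 12 largest falls (right) in each CNS library, on log axes; circles are the 4 CNS LMPP libraries, squares the 4 CNS LK libraries and ticks the group means. For each of the 24 genes all circles lie on one side of all squares; Ly6a, which the gate selected, spans 28.9 to 52.7 CPM in LMPP and 0.842 to 3.80 CPM in LK.

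Ly6a encodes Sca-1, on which the cells were sorted, so its difference checks the labels and is no finding. It stood at 28.9, 39.1, 52.7 and 38.8 CPM in CNS LMPP replicates 1 to 4 and at 2.06, 3.80, 3.45 and 0.842 CPM in CNS LK. The fold change on the log2 scale was 3.99 ± 0.53 (SE, edgeR adjusted p = 0.00211). Flt3, the receptor that completes the LMPP gate, was at 381, 673, 575 and 597 CPM in LMPP and 322, 168, 295 and 309 CPM in LK. Every LMPP library was above every LK library, but the gene was abundant on both sides, and it did not pass in the fit over 24 libraries (log2 fold change 1.03 ± 0.49, edgeR adjusted p = 0.389; 0.0492 over the 8 libraries). Kit, which both gates require, was at 165, 256, 189 and 197 CPM in LMPP and 273, 198, 185 and 223 CPM in LK, with overlapping ranges.

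The other markers of the gates and of the model did not pass either. Il7r, the interleukin 7 receptor of lymphoid progenitors, was low on both sides, at 6.35, 4.35, 4.21 and 3.18 CPM and 1.14, 6.36, 4.58 and 1.75 CPM (log2 fold change 0.38, edgeR adjusted p = 0.885). Cd34 and Cd48, surface proteins of progenitors, had log2 fold changes of -0.30 and 0.23 (edgeR adjusted p = 0.756 and 0.779). Slamf1 did not pass the filter on background. Kmt2a and Aff1, the partners of the fusion, whose counts include the normal genes, had log2 fold changes of 0.17 and 0.51 (edgeR adjusted p = 0.904 and 0.437). Aff1 was nevertheless above the LK range in all LMPP libraries, at 222, 328, 275 and 225 CPM against 179, 169, 185 and 202 CPM.

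The type I interferon list held 8 of the 31 rises, the most of any list examined. Of the 39 genes listed 38 were matched to the table and tested, all 38 had a positive fold change, and 8 rose, among them Irf7, Stat2, Irf9, Ifit2, Zbp1, Oas3 and Mx1. None fell, and in the fit over the 8 libraries 22 passed. The median log2 fold change of the list was 1.32, beside -0.04 over all genes tested, and 27 members did not overlap between the groups. Across the alternative settings the median stayed between 1.09 and 1.63. The groups were split on Sca-1, and the part of that gate in these rises was not tested.

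Irf7 was at 215, 263, 305 and 183 CPM in CNS LMPP, a mean of 242 ± 53.8 (SD, n = 4), and at 28.9, 62.1, 35.4 and 21.2 CPM in CNS LK, a mean of 36.9 ± 17.8. The lowest LMPP library was far above the highest LK library, and the log2 fold change was 2.71 ± 0.39 (SE, edgeR adjusted p = 0.00382). Stat2 and Irf9 rose as well. Stat2 was at 120.4, 163, 154 and 102 CPM in LMPP and 36.0, 59.7, 46.3 and 46.0 CPM in LK (log2 fold change 1.52 ± 0.28, edgeR adjusted p = 0.0259). Irf9, which binds the DNA, was at 116, 141, 168 and 114 CPM and 65.3, 88.6, 52.7 and 52.0 CPM (1.06 ± 0.23, edgeR adjusted p = 0.0478). In neither did an LK library reach an LMPP library.

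The effector genes followed. Zbp1, a sensor of left-handed nucleic acid, was at 48.0, 44.4, 49.4 and 28.3 CPM in LMPP and 6.39, 18.7, 9.39 and 6.48 CPM in LK (log2 fold change 2.06 ± 0.41, edgeR adjusted p = 0.036). Mx1, an antiviral GTPase, was at 71.6, 93.7, 87.3 and 66.6 CPM and 18.2, 33.6, 26.6 and 20.5 CPM (log2 fold change 1.69 ± 0.36, edgeR adjusted p = 0.0409). Oas3, which makes a messenger molecule that activates RNA decay, was at 56.9, 71.1, 93.0 and 61.5 CPM and 21.0, 46.7, 21.3 and 16.1 CPM (log2 fold change 1.43 ± 0.31, edgeR adjusted p = 0.0462). CNS LK replicate 2 had the highest LK value of all 3 genes, still below every LMPP library. Ifit2, an RNA-binding protein induced by interferon, had a log2 fold change of 1.40 ± 0.25 (edgeR adjusted p = 0.0225). Isg15, the ubiquitin-like modifier of the pathway, was at 16.9, 9.84, 15.1 and 8.49 CPM and 1.92, 3.70, 2.40 and 2.20 CPM and did not pass over the 24 libraries (log2 fold change 2.29 ± 0.55, edgeR adjusted p = 0.0587; 0.0107 over 8).

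Among the largest rises outside this list were other genes that interferon induces. Parp12, an ADP-ribosyltransferase, stood at 62.8, 77.5, 79.8 and 38.4 CPM in LMPP and 13.6, 17.7, 15.3 and 11.7 CPM in LK (log2 fold change 2.15 ± 0.35, edgeR adjusted p = 0.011). Slfn1, of the Schlafen family, was at 20.4, 22.2, 23.5 and 13.7 CPM and 1.49, 4.18, 3.23 and 1.68 CPM (2.92 ± 0.63, edgeR adjusted p = 0.0462). Ube2l6, the enzyme that passes Isg15 on to its targets, was at 17.3, 17.7, 25.4 and 13.6 CPM and 7.02, 8.54, 4.28 and 3.69 CPM (1.66 ± 0.37, edgeR adjusted p = 0.0488). The groups did not overlap for any of these. Genes of interferon gamma responses, GTPases of the Gbp and Irg families and class I presentation showed less: 24 of 27 tested (of 30 listed) were higher, 0 passed over 24 libraries and 8 over 8 libraries, and the median log2 fold change was 0.79. Those 8 included Psmb9, a subunit of the immunoproteasome (0.98 ± 0.22, edgeR adjusted p = 0.0537, 0.012 over 8), and Irf1, an interferon-induced transcription factor (0.82 ± 0.22, edgeR adjusted p = 0.0878, 0.012 over 8). Whether this list and the type I list differed was not tested.

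**Figure D2:**
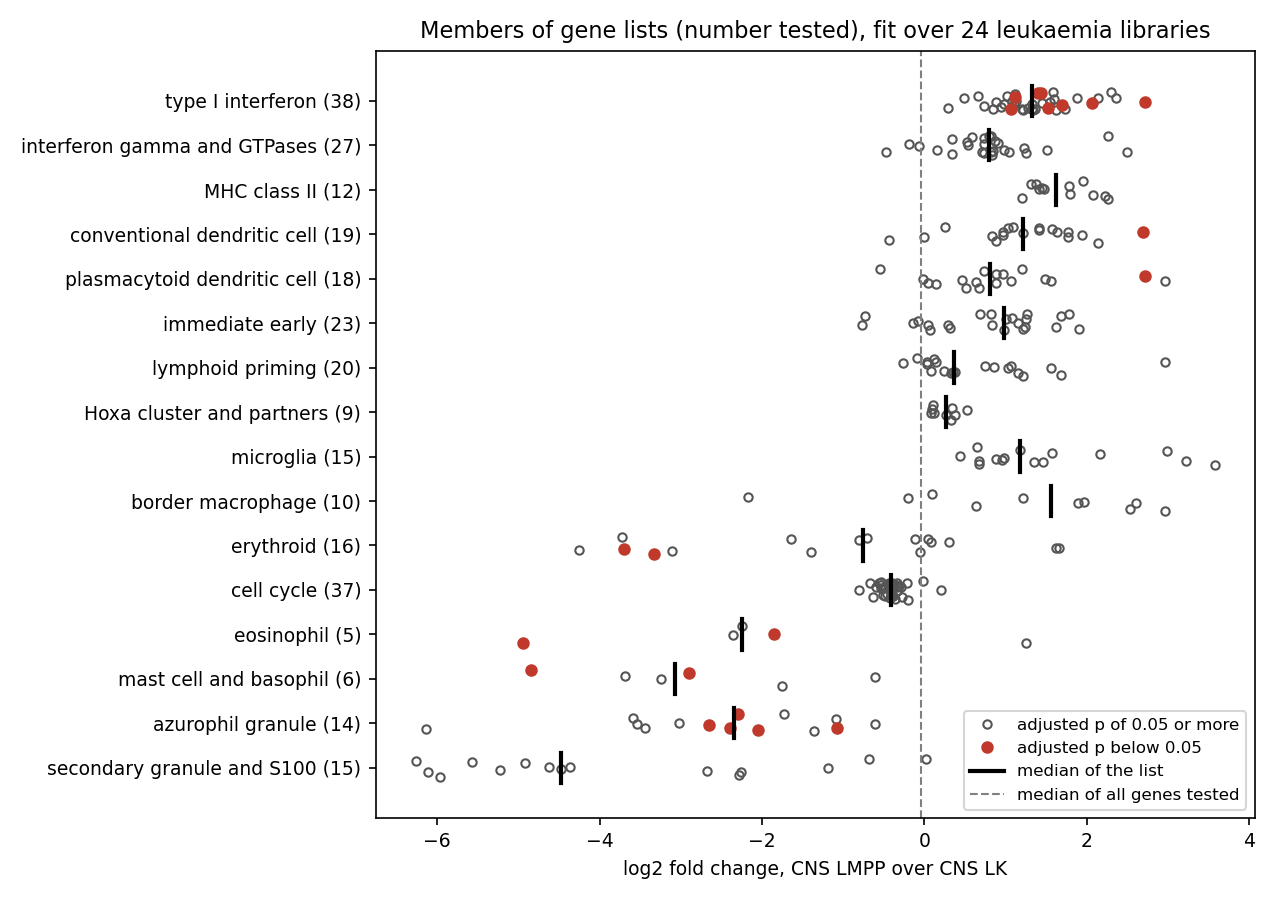
Log2 fold change of CNS LMPP over CNS LK for each tested member of 16 gene lists in the fit over 24 libraries, with the number of tested members in brackets; filled points passed at an adjusted p below 0.05, vertical bars are list medians and the dashed line is the median of all genes tested. The type I interferon points all lie right of 0 with a median of 1.32, and the secondary granule points reach furthest left, with a median of -4.48 and no filled point.

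Dendritic cell genes formed the next group. Of 19 conventional dendritic cell genes, all tested, 17 were higher, 1 rose and 11 passed over the 8 libraries; the median log2 fold change was 1.22. Flt3, on which the cells were sorted, is 1 of those 11. The gene that rose was Xcr1, the chemokine receptor of cross-presenting dendritic cells. It was at 124, 79.0, 171 and 62.1 CPM in LMPP and 6.10, 21.6, 22.6 and 17.0 CPM in LK, with the lowest LMPP library well above the highest LK library (log2 fold change 2.70 ± 0.51, edgeR adjusted p = 0.0259). Batf3, a transcription factor of the same cells, was at 35.7, 59.4, 52.3 and 18.4 CPM and 5.82, 10.3, 21.0 and 11.7 CPM, and LMPP replicate 4 overlapped the LK range. It passed over the 8 libraries only (log2 fold change 1.76 ± 0.58, edgeR adjusted p = 0.158, and 0.0356 over 8). Zbtb46, another regulator of these cells, had a log2 fold change of 1.57 ± 0.51 (edgeR adjusted p = 0.154, and 0.0235 over 8).

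Cd83 and Ly75, surface proteins found on dendritic cells, also rose. Cd83 was at 18.6, 19.9, 31.8 and 11.7 CPM in LMPP and 1.99, 5.69, 5.93 and 4.15 CPM in LK (log2 fold change 2.21 ± 0.48, edgeR adjusted p = 0.0462), and Ly75, an endocytic receptor, was at 69.0, 60.5, 66.0 and 42.0 CPM and 16, 22.9, 28.7 and 18.7 CPM (1.46 ± 0.30, edgeR adjusted p = 0.0365). Of 18 plasmacytoid dendritic cell genes tested (of 19) 16 were higher, with a median of 0.81, and Irf7, which is also in the interferon list, was the gene that rose. Siglech, a surface receptor typical of plasmacytoid cells, did not pass in either fit: it was at 37.4, 40.9, 35.8 and 38.4 CPM and 10.1, 17.7, 20.9 and 33.8 CPM, so that LK replicate 4 came close to the LMPP level (0.89 ± 0.54, edgeR adjusted p = 0.558, and 0.132 over 8).

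MHC class II genes, which present peptides to CD4+ T cells, were higher in every tested member, 12 of 12 (13 listed), and no library overlapped for any of the 12. The median log2 fold change was 1.62. Yet 0 of the 12 passed over the 24 libraries and all 12 passed over the 8. Cd74, the invariant chain, was at 4337, 6996, 6498 and 3020.3 CPM in LMPP and 559, 1188, 1706 and 1479 CPM in LK (log2 fold change 2.08 ± 0.82, edgeR adjusted p = 0.259, and 0.0192 over 8). Ciita, the transactivator of these genes, was at 306, 316, 397 and 207 CPM and 36.8, 95.0, 135 and 86.5 CPM (1.79 ± 0.53, edgeR adjusted p = 0.123, and 0.0193 over 8). H2-Ob, a chain of the peptide-loading regulator H2-O, had the smallest p of the list, with a log2 fold change of 1.45 ± 0.36 (edgeR adjusted p = 0.0673). Among libraries that only the fit over 24 holds, Cd74 ran from 94.5 to 1640.0 CPM in CNS HSC and from 483 to 3891 CPM in BM LMPP; the cause of the difference between the fits was not tested.

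Of the remaining 12 largest rises, Pygm, muscle glycogen phosphorylase, was at 25.4, 21.4, 40.3 and 33.4 CPM in LMPP and 9.44, 11.4, 8.71 and 9.53 CPM in LK (log2 fold change 1.63 ± 0.27, edgeR adjusted p = 0.011). Plekho2, a protein with a pleckstrin homology domain, was at 274, 378, 409.6 and 200.4 CPM and 80.2, 96.2, 122 and 131 CPM (1.55 ± 0.32, edgeR adjusted p = 0.0403). Neither gene overlapped between the groups. Icam1, the adhesion ligand of leukocyte integrins, was the only one of 25 tested adhesion genes (of 31) to rise (1.15 ± 0.24, edgeR adjusted p = 0.0402). Among 43 tested chemokine and cytokine receptors (of 49) Xcr1 was the only rise. No member of either list fell.

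The azurophil granule list, named for the first granules that neutrophil precursors make, held 5 of the 27 falls, the most of any list examined. Not all its members encode granule proteins, Gstm1 being an exception. All 14 genes of the list were tested and all had negative fold changes, with a median of -2.34; 5 fell, and 11 passed over the 8 libraries. Mpo, myeloperoxidase, was at 311, 332, 143 and 494 CPM in CNS LMPP and 2325, 1234, 1973 and 2528 CPM in CNS LK. The highest LMPP library, replicate 4, remained below the lowest LK library, replicate 2 (log2 fold change -2.65 ± 0.59, edgeR adjusted p = 0.0474). Ctsg, the protease cathepsin G, was at 58.9, 86.1, 53.7 and 178 CPM and 563, 298, 469 and 517 CPM (-2.29 ± 0.44, edgeR adjusted p = 0.0312). Gstm1, a glutathione transferase, was at 13.1, 19.6, 11.4 and 18.4 CPM and 112, 40.7, 103 and 73.9 CPM (-2.39 ± 0.47, edgeR adjusted p = 0.0349). Cst7, a cystatin, and Prss57, a serine protease, also fell (-2.05 ± 0.40 and -1.08 ± 0.23, edgeR adjusted p = 0.0344 and 0.045), Prss57 with 1 LMPP library inside the LK range. Without CNS LMPP replicate 4, its highest LMPP library, the log2 fold change of Cst7 was -2.69 (edgeR adjusted p = 0.00338). That was the strongest of the 8 fits that each left out 1 library. Cst7 passed in 2 of them, with log2 fold changes up to -1.82 and an edgeR adjusted p of up to 0.194. Mpo passed in 2 of the 8 fits that each left out 1 library, with an edgeR adjusted p of up to 0.233.

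Elane, neutrophil elastase, had the most negative fold change of this list but did not pass over 24 libraries. It was at 2.85, 1.70, 1.18 and 1.47 CPM in LMPP and 96.6, 27.5, 171 and 179 CPM in LK (log2 fold change -6.13 ± 1.5, edgeR adjusted p = 0.065, and 0.00563 over 8), and it stood at 217 CPM in CNS HSC replicate 4 against 8.59 to 12.6 CPM in the other HSC libraries. Genes of later, secondary granules and S100 proteins were also mostly lower: 14 of 15 tested (of 16) were lower, with a median of -4.48, 0 passed over 24 libraries and 11 over 8. Ngp, a secondary granule protein, was at 4.16, 5.68, 3.70 and 2.29 CPM and 43.7, 184, 591 and 390.3 CPM (-6.26 ± 1.76, edgeR adjusted p = 0.106, and 0.00768 over 8). S100a9, a calcium-binding protein of neutrophils, was at 3.28, 3.97, 3.53 and 3.10 CPM and 33.1, 142, 480.1 and 307 CPM, again with no overlap.

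Genes of mast cells, basophils and eosinophils were lower as well. Of 14 mast cell and basophil genes 6 were tested, all lower, with a median of -3.07, and 2 fell. Cpa3, the mast cell carboxypeptidase, was at 5.04, 3.41, 2.02 and 0.979 CPM in LMPP and 114, 79.5, 50.8 and 60.9 CPM in LK (log2 fold change -4.85 ± 1.03, edgeR adjusted p = 0.0435). Hdc, the enzyme that makes histamine, was at 10.1, 4.26, 3.03 and 0.979 CPM and 45.8, 29.6, 32.8 and 19.3 CPM (-2.90 ± 0.65, edgeR adjusted p = 0.0488). The highest LMPP value of both genes was in replicate 1, below every LK value. Without CNS LMPP replicate 1 the log2 fold change of Hdc was -3.55; it passed in that fit only of the 8 that each left out 1 library, and Cpa3 passed in 0. Of 9 eosinophil genes 5 were tested, 4 were lower and 2 fell. Prg2, the major basic protein, was at 3.72, 0.851, 7.15 and 0.490 CPM and 73.3, 140.5, 66.1 and 92.5 CPM, the largest fall named here (-4.94 ± 1.03, edgeR adjusted p = 0.0403), and Siglecf, a sialic acid receptor of eosinophils, was at 6.13, 2.36, 3.53 and 3.10 CPM and 13.9, 12.8, 14.7 and 11.9 CPM (-1.85 ± 0.37, edgeR adjusted p = 0.036). Prg2 passed in 0 of the 8 fits that each left out 1 library, with edgeR adjusted p from 0.0531 to 0.141, and its log2 fold change was -6.07 without CNS LMPP replicate 3, the LMPP library with the highest level.

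Rab44, Alox5, Cd200r4 and Igfbp7 were also among the 12 largest falls and belong to none of the lists. Rab44, a large Rab GTPase, was at 31.5, 45.8, 17.3 and 82.6 CPM in LMPP and 401, 261, 243 and 319.7 CPM in LK (-2.79 ± 0.56, edgeR adjusted p = 0.036). Alox5, which starts leukotriene synthesis, was at 6.57, 6.53, 3.11 and 1.22 CPM and 24.1, 26.2, 20.7 and 11.7 CPM (-2.29 ± 0.50, edgeR adjusted p = 0.0462). Cd200r4, a receptor of the Cd200 family, was at 1.31, 1.14, 0.673 and 0.326 CPM and 7.10, 9.11, 6.83 and 3.95 CPM (-3.02 ± 0.52, edgeR adjusted p = 0.0152). Igfbp7, a secreted binding protein of insulin-like growth factors, was the fall of smallest p. It was at 1.31, 0.662, 0.757 and 0.898 CPM and 11.8, 13.9, 11.3 and 6.35 CPM (-3.61 ± 0.54, edgeR adjusted p = 0.0039).

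The red cell list was divided. Of 16 erythroid genes tested (of 20) 11 were lower and 5 higher, with a median of -0.75, and the regulators Klf1 and Gata1 fell. Klf1 was at 0.876, 0.757, 0.673 and 0.571 CPM in LMPP and 20.2, 6.07, 5.48 and 5.38 CPM in LK, where replicate 1 stood apart from the other 3 (log2 fold change -3.70 ± 0.67, edgeR adjusted p = 0.0225). Without CNS LK replicate 1 the log2 fold change was -2.98 and the edgeR adjusted p 0.137. Gata1 was at 1.97, 1.42, 0.673 and 0.245 CPM and 22.1, 8.07, 5.93 and 4.54 CPM, again with LK replicate 1 highest (-3.32 ± 0.66, edgeR adjusted p = 0.036). Leaving out CNS LK replicate 1 gave Gata1 a log2 difference of -2.60 and an edgeR adjusted p of 0.187, and Gata1 passed in 3 of the 8 fits that each left out 1 library, with edgeR adjusted p up to 0.202 without CNS LMPP replicate 3. The adult beta globin genes went the other way: Hbb-bs was at 94.2, 195, 156 and 217 CPM in LMPP and 93.5, 25.6, 50.7 and 39.4 CPM in LK, and it passed over the 8 libraries only (1.66 ± 0.67, edgeR adjusted p = 0.279, and 0.046 over 8). Hbb-bs and Hbb-bt are near-identical copies, so the split of reads between them is uncertain.

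Among 38 tested transcription factors of blood cell fate (of 41) the median log2 fold change was -0.11, and only Gata1 and Zeb2 passed. Zeb2, a repressor active in myeloid and dendritic cells, was at 83.4, 61.2, 61.0 and 96.6 CPM in LMPP and 205, 183, 165 and 221 CPM in LK (-1.36 ± 0.25, edgeR adjusted p = 0.0259). The Hoxa cluster and its partners, genes that Kmt2a fusions keep active, had 9 of 9 tested members (of 15) slightly higher, with a median of 0.27, and 0 passed in either fit. Lymphoid priming genes were higher in 18 of 20 tested (of 23), with a median of 0.37; 0 passed over 24 libraries and 4 over 8, of which 1 was Flt3, on which the cells were sorted. The member of smallest p was Dntt, which adds bases during antigen receptor rearrangement, at 94.4, 31.5, 173 and 197 CPM and 16.5, 25.6, 8.11 and 13.5 CPM (2.96 ± 0.72, edgeR adjusted p = 0.0615, and 0.0198 over 8). LMPP replicate 2 was close to the LK range, and the ranges did not overlap.

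Immediate early genes, which respond to stimulation within minutes and also to handling of cells, were higher in 19 of 23 tested (of 25). The median was 0.98, with 0 passing over 24 libraries and 8 over 8. Ier5 was at 119, 149.9, 150.1 and 99.98 CPM in LMPP and 20.5, 35.8, 45.3 and 37.1 CPM in LK (1.90 ± 0.43, edgeR adjusted p = 0.0537, and 0.00667 over 8). Summed over the list, the level was 817, 1152, 1271 and 763 CPM in LMPP and 387, 483, 616 and 488 CPM in LK, without overlap; its part in the rises above was not tested. Cell cycle genes were lower in 36 of 37, with a median of -0.41, and 0 passed in either fit. Their summed level was 3244, 2845, 3155 and 5418 CPM in LMPP and 5258, 4651, 3846 and 5681 CPM in LK, with LMPP replicate 4 inside the LK range and the other 3 LMPP libraries below it.

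Genes listed as markers of microglia also differed between the groups. All 15 tested microglia genes (of 16) had positive fold changes, with a median of 1.18; 0 passed over 24 libraries and 2, Cst3 and Gpr34, over 8. The summed level of the list was 2159, 2722, 2936 and 1451 CPM in LMPP and 586, 959, 1136 and 1250.3 CPM in LK, without overlap. In BM the same sum ran from 757 to 1860 CPM in LMPP and from 650 to 1049 CPM in LK. Levels like those of CNS LK were thus also found outside the CNS. In BM the median log2 fold change of the list was 0.03, with 8 of 15 members higher. In CNS, LMPP replicates 1 to 3 had sums above both BM ranges. C1qa, a complement gene of resident macrophages, was at 46.4, 20.6, 18.2 and 0.0816 CPM in LMPP and 0.710, 2.47, 3.83 and 0.13 CPM in LK, and Apoe, a lipid carrier they express strongly, at 195, 182, 140.2 and 4.73 CPM and 14.7, 22.2, 20.4 and 10.0 CPM. LMPP replicates 1 to 3 were above every LK library for both genes and LMPP replicate 4 was below every LK library. In that replicate C1qc had 0 counts, while Irf7 stood at 183 CPM, Stat2 at 102 CPM, Xcr1 at 62.1 CPM and Cd74 at 3020.3 CPM, above every LK library in each case; these 4 genes were picked after their values were seen. It also had the lowest summed type I interferon level of the CNS LMPP libraries, 2126 CPM, and the lowest MHC class II level, 7159 CPM, and its Batf3 level was inside the LK range. The part of the macrophage markers in the rises was not tested.

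The 10 tested border macrophage genes (of 12) were higher in 8, with a median of 1.55, 0 passing over 24 libraries and 1, Mrc1, over 8. In BM the median log2 fold change of this list was 0.04, with 6 of 10 members higher. In CNS the summed levels overlapped, 583, 671, 486 and 371 CPM in LMPP against 758, 463, 636 and 915 CPM in LK. Tmem119 and P2ry12, markers that set microglia apart from other macrophages, were at 13.4, 5.30, 5.64 and 18.1 CPM and 12.7, 3.41, 4.63 and 0.979 CPM in LMPP. In LK they were at 2.20, 6.26, 4.81 and 8.23 CPM and 1.06, 2.66, 3.60 and 0.972 CPM, and the groups overlapped for both. Of 12 neuron genes 0 passed the filter on background, and their summed level was 100.1, 37.1, 29.8 and 5.55 CPM in LMPP and 13.5, 106, 84.9 and 10.6 CPM in LK. Of 9 astrocyte genes 2 were tested, 0 passed in either fit, and the summed levels overlapped. Of 10 oligodendrocyte genes 3 were tested and all 3 had positive fold changes, 2 of them without overlap; 0 passed over 24 libraries and 1, Mbp, over 8. Their summed level was 226, 296, 280.5 and 190.2 CPM in LMPP and 141, 186, 171 and 171 CPM in LK, without overlap, and its part in the rises was not tested. In BM the sum ran from 146 to 232 CPM in LMPP and from 123 to 167 CPM in LK. All 3 tested oligodendrocyte genes were higher in BM LMPP than in BM LK too. The sums of CNS LMPP replicates 2 and 3 lay above the BM LMPP range. Of 12 endothelial and pericyte genes 5 were tested, and Pdgfrb, a growth factor receptor of pericytes, fell (-1.90 ± 0.43, edgeR adjusted p = 0.0488).

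**Figure D3:**
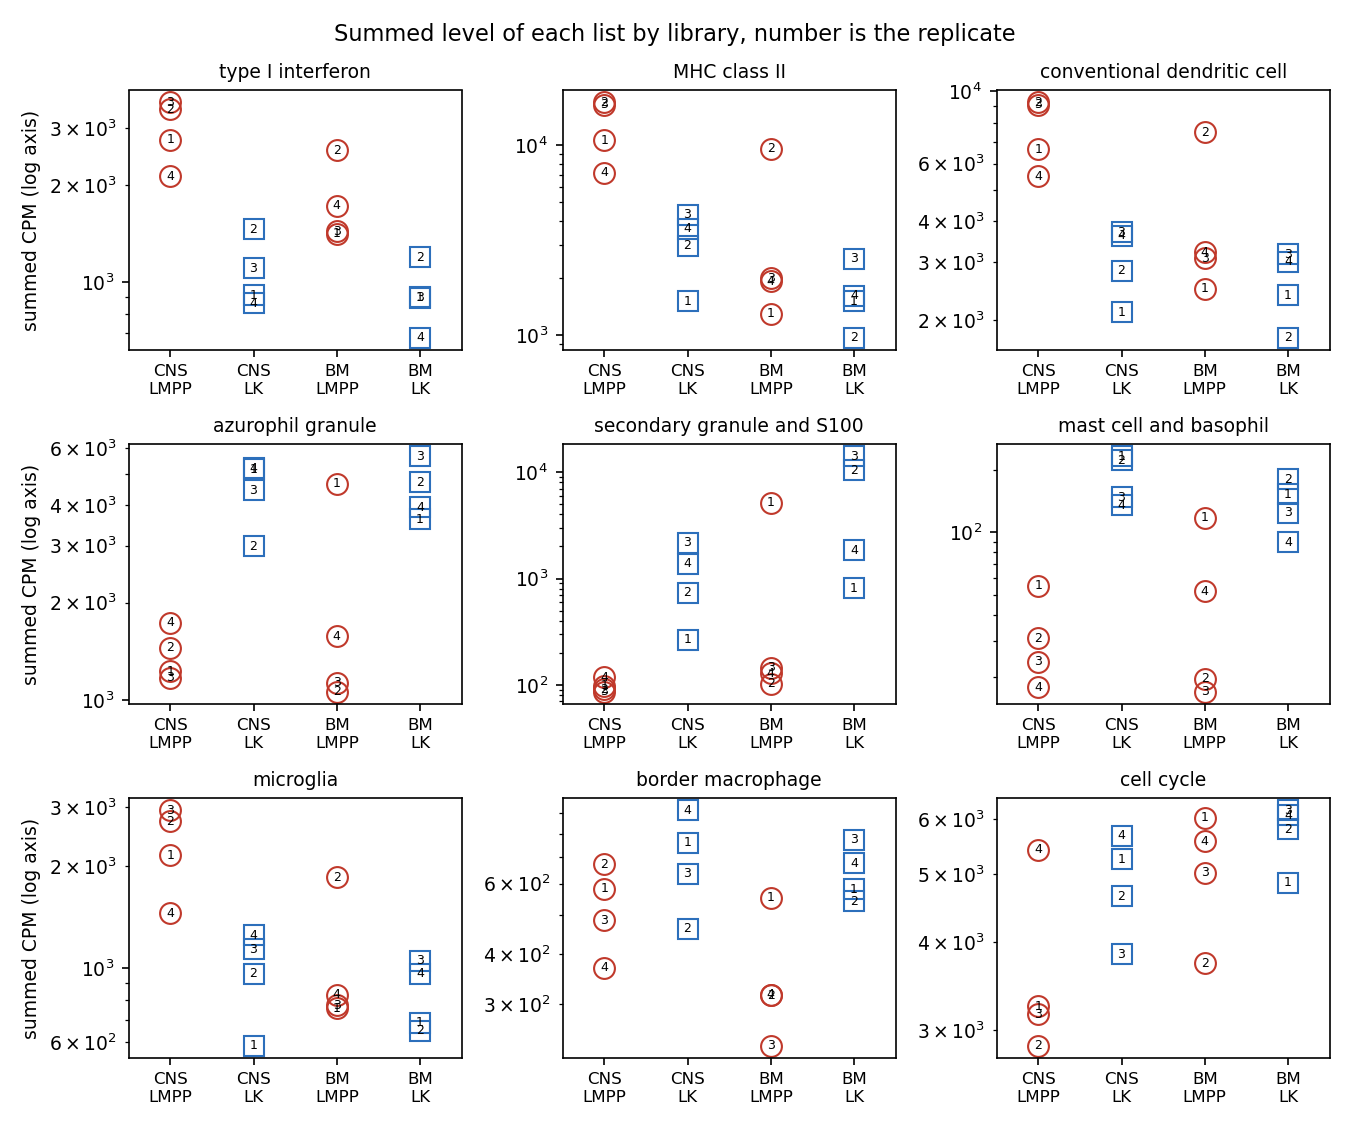
Summed CPM of 9 gene lists (log axes) in each LMPP (circles) and LK (squares) library of CNS and BM, with the replicate number inside. The type I interferon sums of CNS LMPP, 2126 to 3596 CPM, lie above all CNS LK sums, 861 to 1461 CPM; BM LMPP replicate 2 is high for MHC class II and BM LMPP replicate 1 for both granule lists.

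The same contrast was then taken in BM, with cells from the same mice. In the fit over 24 libraries 1 of 16054 genes passed between BM LMPP and BM LK (0.00623%), while 834 had an unadjusted p under 0.05. That gene was Ly6a (3.60 ± 0.54, edgeR adjusted p = 0.0122). All 58 genes of the CNS comparison had the same sign in BM. The share with the same sign over all genes tested was not computed. Since LMPP and LK cells came from different mice and BM shares these mice with CNS, BM is no independent repeat. Cell type and mouse cannot be told apart in either tissue. The median log2 fold change was 1.40 in CNS and 0.76 in BM for the 31 that rose, and -2.05 and -1.04 for the 27 that fell; the genes were chosen on the CNS values, which favours CNS. BM LMPP was uneven, and its replicate 3 held only 1.91 M counts. Replicate 1 had secondary granule genes summing to 5131 CPM, against 102 to 146 CPM in the other 3, and azurophil genes at 4668 CPM against 1058 to 1571 CPM, within the BM LK range. Without it, 91 genes passed in BM.

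Irf7 was at 57.6, 176, 105 and 129 CPM in BM LMPP and 31.4, 29.4, 22.7 and 16.9 CPM in BM LK, with BM LMPP replicate 1 lowest of its group, and missed the threshold (2.22 ± 0.39, edgeR adjusted p = 0.0663). The type I interferon list was higher in 36 of 38 members in BM, with a median of 0.87, and its summed level was 1412, 2553, 1436 and 1722 CPM in BM LMPP and 897, 1196, 899.9 and 673 CPM in BM LK, again without overlap. MHC class II had a median of 0.81 in BM, and there replicate 2 alone carried a high level: Cd74 was at 483, 3891, 730.0 and 731 CPM in BM LMPP and 549, 321, 1007 and 611 CPM in BM LK. Medians in BM were 0.72 for conventional dendritic cell genes, 1.37 for plasmacytoid dendritic cell genes, -1.40 for azurophil and -2.21 for secondary granule genes, beside -0.01 over all genes tested.

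Whether the LMPP to LK difference itself differed between CNS and BM was tested by an interaction term. It passed for 0 of 16054 genes (0%); 297 had an unadjusted p under 0.05, with a smallest edgeR adjusted p of 1.00; with the mouse as a block 0 passed and 817 were under 0.05 unadjusted. DESeq2 and limma-voom also called 0, with 359 and 1993 genes at an unadjusted p under 0.05. None of the CNS differences is therefore shown to be larger in CNS than in BM. The 6 genes of smallest interaction p were Klf1, Ly75, Tmem191c, Ticam1, S100a13 and Pygo2. For Klf1 the log2 fold change was -3.70 in CNS and -0.25 in BM, a difference of -3.44 ± 0.90 (edgeR unadjusted p = 0.000911). In BM it was at 2.09, 0.390, 0 and 1.70 CPM in LMPP and 3.56, 0.520, 0.984 and 0.908 CPM in LK, with overlapping ranges. For Ly75 the values were 1.46 and 0.04, a difference of 1.42 ± 0.42 (edgeR unadjusted p = 0.00244). Ticam1, an adaptor of Toll-like receptors, had 0.90 in CNS and -0.07 in BM (edgeR unadjusted p = 0.00597). Tmem191c, a membrane protein gene, had -0.45 and 1.14, S100a13 0.28 and -0.46, and Pygo2, a Wnt pathway gene, 0.69 and -0.21 (edgeR unadjusted p = 0.00325, 0.00703 and 0.00711).

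**Figure D4:**
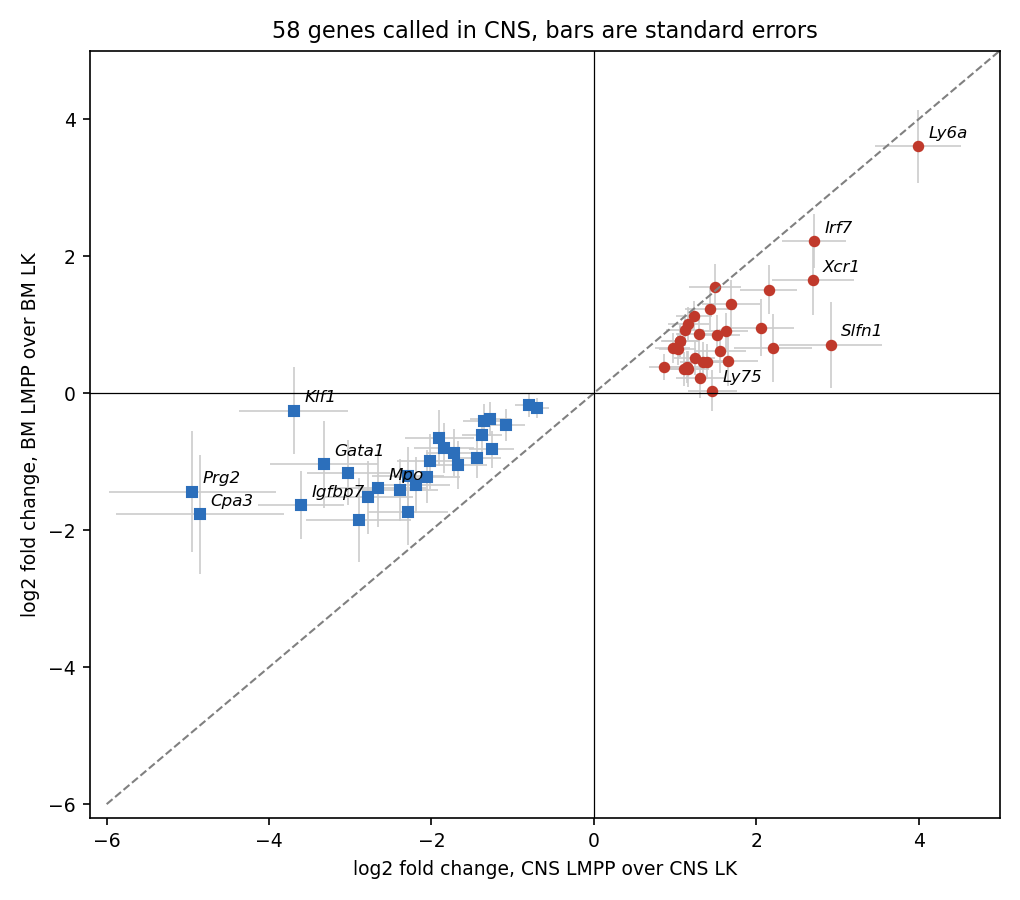
Log2 fold change of LMPP over LK in BM (vertical) against CNS (horizontal) for the 58 genes that passed in CNS; grey bars are standard errors and the dashed line marks equal values. All points share their sign in both tissues, and all but P2ry14 lie nearer to 0 in BM. The genes were chosen on the horizontal axis, and BM and CNS cells came from the same mice.

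Non-leukaemic LMPP and LK cells, here taken from the same 4 mice, gave a reference for the contrast. In the control BM, normalized apart from the leukaemia table, 66.6% of 11499 genes passed, 4006 higher in LMPP and 3658 lower. The background share separated those groups, at 13.6 to 26.0% for LMPP against 6.33 to 12.1% for LK, and its part in that count was not tested. Of the 31 genes that rose in CNS, 15 were tested in the controls and 14 were higher there too; Ifit2 was the one that missed the threshold (0.40, edgeR adjusted p = 0.0617). Of the 27 that fell, 24 were tested, 17 were lower in control LMPP and 3 were higher: Pdgfrb, Alox5 and AC164314.1. Control LMPP differed from control LK in Mpo (-5.82), Ctsg (-5.00) and Klf1 (-3.44; log2 fold changes, edgeR adjusted p = 2.65e-11, 1.51e-10 and 8.16e-10). Irf7, Zbp1, Mx1, Parp12, Slfn1, Xcr1 and Cd83 did not pass the filter on background in the controls, so no fold change is given for them. Among type I interferon genes 16 of 38 were tested in the controls, with a median of 0.69. Secondary granule genes had a positive median there, 1.59 over 9 tested, opposite in sign to the leukaemia values in both tissues.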

How the data were processed

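The authors deposited 2 tables of whole counts per gene, 1 for the 24 leukaemia and 1 for the 12 control libraries, with 55414 identifiers each. Their names call the values normalised, but library totals differ, so they were treated as unscaled counts. Sorted cells were lysed for total RNA and made into stranded low-input libraries, per the labels' protocols. DESeq2 and build GRCm39 are named, per the submitters' processing notes; the sources used here do not name the aligner, counter or strand setting, so overlapping genes and near-identical copies are uncertain. Symbols (52081 identifiers) and exon lengths (52133) came from a GRCm38 annotation. Between 32.7 and 47.4% of counts in the 8 compared libraries fell on identifiers without a symbol; those without a length were not tested.

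Background was estimated from 1690 sensory receptor genes. Genes were tested if, in at least 4 libraries, they exceeded by more than 10 counts a level 3 times that background at their length. edgeR 4.0.16 (R 4.3.3) fitted groups of all 24 libraries without a mouse term, with Benjamini-Hochberg adjustment and a threshold of 0.05; CPM are counts per M counts (M, the prefix mega) in tested genes. Single values were compared by exact permutation (scipy 1.17.1). DESeq2 1.42.0, limma 3.58.1 (voom with sample weights), other filters, scalings and left-out libraries were alternatives. The scripts were tested on simulated data. BM and CNS libraries of a cell type with the same number come from the same mouse per the labels, and their deviations from group means correlated from -0.466 to 0.302 in LMPP and from 0.027 to 0.694 in LK.

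The groups, the 41 lists (813 of 814 genes matched) and the tests were chosen with earlier results of these data known. Genes named are the 12 largest rises and 12 largest falls among those that passed, with a mean of at least 5 CPM in the higher group, no overlap and a symbol that is not a predicted gene or clone name, 9 fixed genes (Ly6a, Flt3, Kit, Il7r, Kmt2a, Aff1, Cd34, Cd48 and Slamf1), members of lists that passed or have small p, and the 6 smallest interaction p-values. Other genes named, such as Elane, Siglech, Isg15, Cd74 and the macrophage and globin genes, were chosen after their values were seen. One gene of the interferon list is not reported here.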

Additional observations from a re-analysis of the deposited data

Results flagged for a closer look

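Values of single libraries stood apart from the other 3 of their group by Dixon's test at its 95% level in 4 of the 148 gene and list values examined; chance alone flags about 5%. Cd34 was at 224 CPM in CNS LMPP replicate 4 and between 109 and 115 CPM in the other CNS LMPP libraries. The summed level of the cell cycle list was also highest in that library, at 5418 CPM against 2845 to 3244 CPM in the other 3. Klf1 was at 20.2 CPM in CNS LK replicate 1 and between 5.38 and 6.07 CPM in the other CNS LK libraries. The summed level of a list of MAPK feedback genes was 509.9 CPM in CNS LK replicate 3, below 573 to 577 CPM in the other 3.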

How the results depend on the processing

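All 58 genes kept their direction under every alternative that gave a value, and the interaction between tissue and cell type called 0 genes in each of its settings. The number of genes called between CNS LMPP and CNS LK, 58, was far less stable. It was 2 with a filter of at least 10 counts in at least 4 libraries, which tests 40332 genes, and 20 (4 higher and 16 lower) with no filter, against 529 with DESeq2 (371 and 158) and 2202 with limma-voom and sample weights (1450 and 752). Using fewer libraries for the spread gave 168 with CNS HSC replicate 1 and BM LMPP replicate 3 both left out, 227 with the 16 LMPP and LK libraries and 757 with the compared 8 (610 and 147). BM LMPP replicate 3 held 1.91 M counts, the fewest of the leukaemia libraries. CNS HSC replicate 1 had the highest level of Xist (RNA of the inactive X chromosome), 232 CPM, and the highest microglia list sum, 3739 CPM. Both libraries were kept in the main fit. A term for the background share gave 301 over 24 libraries (179 and 122) and 1646 over 8 (1166 and 480). Leaving out each CNS library in turn gave 3 to 120 calls: 3, 48, 7 and 5 without CNS LK replicates 1 to 4, and 19, 4, 3 and 120 without CNS LMPP replicates 1 to 4. DESeq2's size factors gave 84 and a term for the first number of the mouse ID 60, among them 44 of the 58. The cause of these differences was not tested.

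Between BM LMPP and BM LK, 1 gene was called. The count was 0 with the filter on at least 10 counts, with those 2 libraries left out, over the BM LMPP and LK libraries alone and with the replicate block over them, but 4 with DESeq2's size factors, 35 with DESeq2 and 47 with limma-voom. It ran from 0 to 91 when each library was left out, with 91 (36 higher and 55 lower) without BM LMPP replicate 1. In the controls the 7664 calls became 16572 with the filter on at least 10 counts, of which 6357 were higher and 10215 lower; they ran from 7124 to 8025 with each library left out and were 7471 with the mouse as a replicate block.

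The replicate numbers do not pair CNS LMPP with CNS LK: deviations of same-numbered libraries correlated at -0.594, 0.073, 0.105 and 0.552, and for 0 of 4 CNS LMPP libraries was the same number the best match. With these numbers as a replicate block over the 8 libraries 469 genes were called (362 and 107). CNS LMPP replicate 1, at 8.45 M counts, is the shallowest of the compared libraries, and levels near 1 CPM rest on few counts in each library.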

Other observations

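Further lists described other functions. Of 14 tested BCL2 family genes (of 18) 11 were higher in CNS LMPP than in CNS LK, with a median log2 fold change of 0.34, and 0 passed over the 24 libraries. Over the 8 compared libraries 4 passed, all higher. Bbc3, which encodes the death-promoting protein Puma, was at 21.0, 33.2, 25.2 and 22.3 CPM in LMPP and 8.02, 15.9, 11.0 and 16.7 CPM in LK (log2 fold change 0.98 ± 0.30, edgeR adjusted p = 0.138, and 0.046 over 8). Mcl1, which protects cells from death, was at 299.8, 523, 465 and 287 CPM and 183, 182, 217 and 201 CPM (1.01 ± 0.37, edgeR adjusted p = 0.219, and 0.0229 over 8). For both genes every LMPP library was above every LK library. Of the receptors for interferon, Ifnar1 had a log2 fold change of 0.77 ± 0.29 and Ifngr2 of 0.99 ± 0.37 (edgeR adjusted p = 0.233 and 0.235, and 0.0327 and 0.0226 over 8).

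Genes of the Y chromosome varied within the groups. Ddx3y was at 46.4, 53.3, 54.4 and 11.7 CPM in CNS LMPP replicates 1 to 4 and at 74.6, 45.6, 50.9 and 57.1 CPM in CNS LK. Kdm5d was at 37.0, 48.9, 48.2 and 7.67 CPM and 51.6, 40.9, 38.2 and 39.9 CPM. Replicate 4 of CNS LMPP was the lowest of the 8 libraries for both genes. BM LMPP replicate 4, from the same mouse, was also the lowest of its group for both, at 61.4, 65.3, 55.8 and 15.2 CPM for Ddx3y and 44.7, 51.7, 42.8 and 15.7 CPM for Kdm5d in replicates 1 to 4. Xist, the RNA of the inactive X chromosome, was at 5.04, 8.61, 6.81 and 0.571 CPM in CNS LMPP.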
